A study of Mus musculus with 10 samples.

Results

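The baseline transcriptome of mouse embryonic stem cells (ESCs) was described from the 3 wild-type (wt, Tdg+/+) lines among the 10 ESC lines of the series. Members were chosen by genotype label alone. The lines were male, of C57BL/6 background, derived from blastocysts of matings between Tdg+/- parents, expanded first on inactivated feeder cells with serum replacement and leukemia inhibitory factor (LIF), and then adapted to 2i medium. Per the labels the cells were kept on gelatin without serum, in 2i with LIF, and received no treatment. RNA was taken after feeders had been removed for several passages. Each line was 1 library, and no label says which mating gave which line, so the spread between lines is a spread between 3 separately derived lines of 1 genotype that may share parents. No comparison between genotypes was made.

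ESCs are taken from the inner cell mass of the blastocyst and can form every tissue of the embryo. The medium called 2i holds an inhibitor of the kinase MEK, which blocks signaling from fibroblast growth factor (FGF) through the MAPK cascade, and an inhibitor of GSK3, which stabilizes beta-catenin. Together with LIF, which acts through the kinase JAK and the factor STAT3, it holds cells in the naive state, the counterpart of the epiblast before implantation. In this state the factors OCT4 (Pou5f1), SOX2 and NANOG act together on the regulatory regions of many genes, their own included.

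Levels are given in TPM, a transcript's share of all molecules after correction for length, summed over the transcripts of a gene. The deposited tables of the 3 lines held 31095354, 35796913 and 31309872 estimated reads in 35427 genes, of which 21723 were protein-coding and 13173 were pseudogenes. At this depth 1 read on a transcript of 1000 bases was worth 0.0222 to 0.0248 TPM, and a gene without a read in 3 lines could still hold up to 3 reads over them, or a mean of about 0.0239 TPM at that length. Intervals and floors of this kind cover counting error only. Lines 2 and 3 were most alike (Pearson's r = 0.985 on the log2 scale, across 10430 protein-coding genes at a mean of 1 TPM or more), against 0.969 for lines 1 and 2 and 0.965 for lines 1 and 3. Genes are not independent replicates, and the libraries share base composition and annotation. TPM are scaled by the effective lengths in the deposited files, which differ from annotated lengths, and the Salmon options behind them are not given in the sources used here. When TPM were recomputed from annotated lengths, 564 of the 6072 protein-coding genes at 10 TPM or more (9.29%) moved by over 2-fold. Both scales are given below for the 5 ESC markers, and other levels are as deposited.

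All 5 markers of ESC identity were abundant in every line. Pou5f1, which encodes OCT4, stood at 770, 649 and 702 TPM in lines 1, 2 and 3 (707 ± 60.8 TPM, SD, n = 3), rank 196 of the 21723 protein-coding genes. Nanog, which encodes a homeodomain factor of the naive state, stood at 594, 530 and 520 TPM (548 ± 40.3 TPM), rank 238. Nanog was below Pou5f1 in every line, and the lines did not overlap between the genes.

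Zfp42, the classic ESC marker also known as Rex1, had the smallest spread of the 5, with 119, 122 and 118 TPM. Esrrb, an orphan nuclear receptor and target of GSK3 inhibition, stood at 50.6, 48.6 and 40.6 TPM. Sox2, the partner of OCT4 on DNA, stood at 42.7, 50.1 and 43.0 TPM. Esrrb and Sox2 did not differ beyond the spread between lines, whereas the other 3 were each separated from the next by more than that spread. The order depended on the length scale: from annotated lengths Pou5f1 rose to 1505 TPM, Sox2 to 239 TPM and Esrrb to 104 TPM, while Nanog (435 TPM) and Zfp42 (132 TPM) moved less.

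The Nanog promoter is shown because it holds, side by side, the letters of an octamer and of a Sox site, the composite through which OCT4 and SOX2 are known to bind together. In the RefSeq promoter table (GRCm38.p6) it lies on the plus strand at chr6:122707239-122707498, and capitals mark the letters TTTGCATNACAA:

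Nanog: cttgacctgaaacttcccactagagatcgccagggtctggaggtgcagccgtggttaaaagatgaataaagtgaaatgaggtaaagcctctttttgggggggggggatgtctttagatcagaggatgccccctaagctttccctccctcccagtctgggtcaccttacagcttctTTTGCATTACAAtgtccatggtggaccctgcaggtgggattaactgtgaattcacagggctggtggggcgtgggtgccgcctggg

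Among 32851 promoter windows of the table, searched on both strands, 12 held this composite (0.037%). It was in windows of 6 paired protein-coding genes, 4 of them at 1 TPM or more, beside 50.2% of all 16725 paired genes. Nanog was the most abundant of them, followed by Exoc1, a subunit of the exocyst (30.7 TPM), and Pipox, a peroxisomal oxidase (19.7 TPM). Nrarp, an inhibitor of Notch signaling, carried the same letters at a mean of 0.430 TPM and Astn1, a neuronal membrane protein, at 0.0478 TPM. A match describes the letters in the window and is not a measurement of binding.

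All 22 genes of the naive pluripotency list were at 1 TPM or more, and 20 of them were at 10 TPM or more. This list, like the others below, was chosen with earlier results of these data known. The list median was 31.1 TPM, beside a median of 0.724 TPM over all protein-coding genes. Tdgf1, the Nodal co-receptor Cripto, was the most abundant, at 376, 582 and 606 TPM. Among transcription factors of the list, Tfcp2l1, a target of both LIF and GSK3 inhibition, stood at 76.6, 107 and 86.8 TPM.

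The Krüppel-like factors lay close to one another. Klf4 was at 23.2, 35.7 and 30.99 TPM, Klf2 was at 26.2, 28.4 and 25.6 TPM and Klf5 was at 16.01, 16.9 and 15.5 TPM. Klf4 and Klf2 overlapped between lines, and Klf5 was below both in every line. Other regulators of the naive network fell in the same range: Nr5a2, a nuclear receptor that binds the Pou5f1 gene, at 35.8, 48.3 and 48.0 TPM, Nr0b1, its repressor partner, at 31.8, 32.4 and 31.03 TPM, and Prdm14, which opposes DNA methylation and FGF signaling, at 15.004, 15.7 and 13.3 TPM.

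Tbx3, a T-box factor downstream of LIF, was lower in line 1 (15.03 TPM) than in lines 2 and 3 (27.1 and 26.7 TPM). Sall4, a zinc finger partner of OCT4, stood at 49.4, 64.4 and 65.5 TPM, and Zfx, an X-linked zinc finger factor, at 48.5, 49.0 and 58.3 TPM. Lin28a, which blocks maturation of let-7 miRNAs, was at 39.2, 52.2 and 48.2 TPM, and Stat3, the effector of LIF, was at 28.8, 31.8 and 20.9 TPM. None of these 5 genes left the range between 10 and 100 TPM in any line.

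Several genes of the list have roles outside the core circuit. Tcl1, a co-activator of the kinase AKT, was at 73.7, 79.3 and 58.9 TPM, and Fgf4, the FGF ligand that ESCs make themselves, was at 62.2, 59.99 and 43.8 TPM. Dppa4 and Dppa2, which encode partner proteins of early embryo chromatin, were at 80.9, 67.9 and 64.1 TPM and at 35.8, 28.3 and 27.3 TPM. Dppa4 thus exceeded Dppa2 in each line.

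Dppa3 (Stella), which protects maternal methylation in the zygote, varied most of the 22 genes, with 146 TPM in line 1 against 58.2 and 60.1 TPM in lines 2 and 3. The TET enzymes of the list, which oxidize methylated cytosine, were Tet1 at 19.6, 25.1 and 23.3 TPM and Tet2 at 9.02, 16.8 and 15.7 TPM. The lowest members were Utf1, a chromatin factor, at 3.15, 4.58 and 4.15 TPM and Gbx2, a homeobox target of STAT3, at 1.20, 1.73 and 1.39 TPM. Both kept that order in each line.

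Genes of the primed state, reached after implantation, and of the early germ layers were below the naive list. Of 20 listed, 9 were at 1 TPM or more (45%) and 4 at 10 TPM or more, with a median of 0.69 TPM, which is close to all protein-coding genes (48.0% at 1 TPM or more, median 0.724 TPM). Those detected best belong in part to Nodal signaling: Lefty2, a feedback inhibitor, at 34.6, 53.4 and 56.9 TPM, Nodal, the ligand, at 16.8, 18.2 and 13.1 TPM, and Lefty1 at 10.2, 9.02 and 7.25 TPM. Dnmt3b, a methyltransferase that rises in primed cells, was at 26.7, 21.03 and 20.95 TPM.

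Fgf5, the standard marker of primed epiblast, was at 0.0951, 0.0479 and 0.0251 TPM. Pou3f1 (OCT6), a primed and neural factor, was at 0.117, 0.0571 and 0.0423 TPM, and Cer1, a secreted inhibitor from anterior endoderm, had no read. Foxa2 and Mesp1, of endoderm and mesoderm, had means of 0.00857 and 0.0134 TPM. Each of these was far below the lowest of the 5 ESC markers in every line. Otx2, which directs the exit from the naive state, was the highest transcription factor of the list and varied most, with 3.88 TPM in line 1 and 15.9 and 22.8 TPM in lines 2 and 3.

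**Figure D1:**
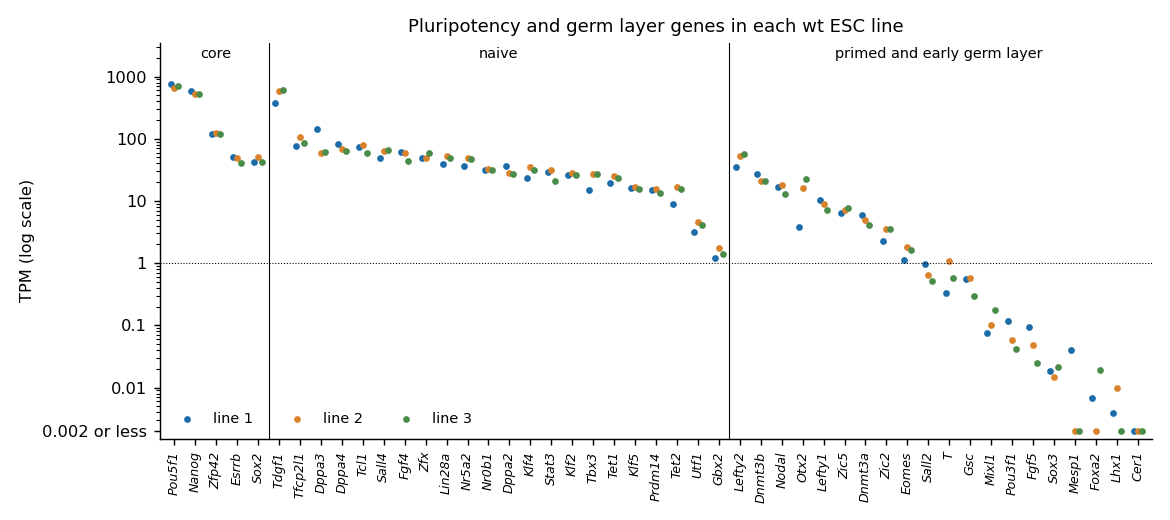
TPM (log scale) of each core, naive, and primed or early germ layer gene in wt lines 1, 2 and 3, with values of 0.002 or less drawn at 0.002 and a dotted line at 1 TPM. All 22 naive genes lie above the dotted line in each line, whereas 11 of the 20 primed and germ layer genes have means below it.

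Genes that mark rare cells resembling the embryo at the 2-cell stage were close to silent. None of the 9 listed genes that could be matched reached 1 TPM, and 4 had no read (Tcstv3, Tdpoz4, Zfp352, Zscan4d). Zscan4f, of the Zscan4 cluster that is active at genome activation, was detected in line 2 alone (0.102 TPM), and Zscan4c in line 1 alone (0.0336 TPM). Tcstv1 (0.0751 TPM) and Usp17lc (0.0173 TPM) were detected in line 3 alone, and Sp110, a nuclear body protein, in line 1 alone (0.0596 TPM). In bulk RNA, few cells with much of a transcript and many cells with little of it cannot be told apart.

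The other lineages of the blastocyst differed from each other. Of 17 primitive endoderm genes 4 were at 1 TPM or more (23.5%, beside 48.0% of all protein-coding genes), and the median was 0.10 TPM. Gata6 and Sox17, which specify that lineage, were at most 0.0167 TPM and 0.108 TPM in any line, and Afp, Foxa1 and Ttr had no read. Sparc, a matrix protein that the list holds, was high at 575, 475 and 493 TPM, while the laminin genes Lamb1 (7.19, 4.71 and 4.20 TPM) and Lama1 (4.85, 5.18 and 4.86 TPM) were modest.

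Of 16 trophectoderm genes 8 were at 1 TPM or more, with a median of 1.26 TPM, near the 48.0% and 0.724 TPM of all protein-coding genes, but Cdx2, which defines the lineage, was at 0.0455, 0.236 and 0.0827 TPM, Elf5 was read in line 1 alone at 0.144 TPM, and Hand1 and Prl3d1 had no read. The most abundant members were Tfap2c, an AP-2 factor also used by naive cells, at 21.6, 18.4 and 15.8 TPM, and Plet1, a surface protein of placental progenitors, at 10.5, 11.04 and 10.8 TPM. Fgfr2, the FGF receptor of the lineage, varied most, with 2.89, 0.471 and 1.23 TPM.

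Differentiated tissues were represented by few genes. In their lists 8.33% (liver) to 27.8% (neural) of genes were at 1 TPM or more, beside 48.0% of all protein-coding genes. In the neural list 5 of 18 genes were at 1 TPM or more, with Stmn2, a microtubule regulator, at 268, 257 and 258 TPM and Tubb3, a neuronal tubulin, at 22.7, 19.101 and 19.8 TPM. Pax6 (0.162, 0.173 and 0.104 TPM) and Sox1 (0.0370, 0.0906 and 0.0653 TPM), which define neural progenitors, were low, and Dcx had no read. In the blood list 2 of 14 genes were at 1 TPM or more, led by Kit, the stem cell factor receptor, at 32.8, 37.0 and 37.2 TPM, and the globin gene Hbb-bs had no read. The liver list had 1 of 12 at that level, Apoa2, an apolipoprotein, at 42.1, 39.9 and 38.5 TPM, beside Alb, the main serum protein, at 0.0235, 0 and 0.0176 TPM. The muscle and heart list had 2 of 14, Des, an intermediate filament protein, at 2.67, 1.47 and 1.28 TPM, and Tnni3, a cardiac troponin.

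The lines had been grown on feeder cells, so fibroblast genes were followed. Of 16 fibroblast and feeder genes 12 were at 1 TPM or more (75%), with a median of 1.501 TPM, beside 48.0% and 0.724 TPM over all protein-coding genes. Their summed level was 243, 278 and 265 TPM, most of it from Vim (156, 117 and 118 TPM) and Fn1 (70.7, 133 and 121 TPM). Defining collagens were low: Col1a1 was at 0.218, 0.726 and 0.424 TPM and Col1a2 at 0.635, 1.49 and 1.17 TPM. Postn, a matrix protein of fibroblasts, was at 0.524, 2.58 and 1.54 TPM, and S100a4, a fibroblast calcium-binding protein, varied most, at 0.238, 1.74 and 1.06 TPM. All 4 were lowest in line 1 and highest in line 2, as was Fn1, whereas Vim was highest in line 1. The part of residual feeder cells in any level given here was not tested.

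Epithelial character was present, with 11 of 14 genes at 1 TPM or more (78.6%, beside 48.0% of all protein-coding genes). Cdh1, E-cadherin, was at 95.5, 85.8 and 83.8 TPM, and Epcam, an adhesion protein, was at 56.7, 34.4 and 28.6 TPM. Claudins varied: Cldn6 was at 20.8 TPM in line 1 against 4.44 and 5.21 TPM in lines 2 and 3, and Cldn7 was at 19.5 TPM against 8.195 and 7.72 TPM. The skin keratins Krt5 and Krt14 stayed below 0.03 TPM.

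Germline genes were mixed, with 10 of 20 at 1 TPM or more (50%), near the 48.0% of all protein-coding genes. Without a read were 3, the sperm chromatin genes Prm1, Prm2 and Tnp1. Rhox5, a homeobox gene regulated by promoter methylation, was the most abundant at 248, 83.5 and 89.4 TPM. Tex19.1, which restrains transposons, was at 115, 66.8 and 60.5 TPM, and Sycp3, a protein of the meiotic chromosome axis, varied most at 31.8, 7.11 and 8.07 TPM. Line 1 was the highest for each of these 3, and Hormad1, another axis protein, was highest in line 3 (42.7 TPM against 25.5 and 17.8 TPM). The lines are male, and 3 of 8 listed genes of the Y chromosome were at 10 TPM or more: Eif2s3y, a translation factor, at 145, 56.7 and 61.9 TPM, Ddx3y, an RNA helicase, at 90.2, 67.4 and 85.8 TPM, and Uty, a demethylase relative, at 41.8, 40.6 and 56.3 TPM. Zfy1 was at 2.20, 5.05 and 4.61 TPM, while Kdm5d, Zfy2 and Usp9y were at most 0.228 TPM and Sry had no read.

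**Figure D2:**
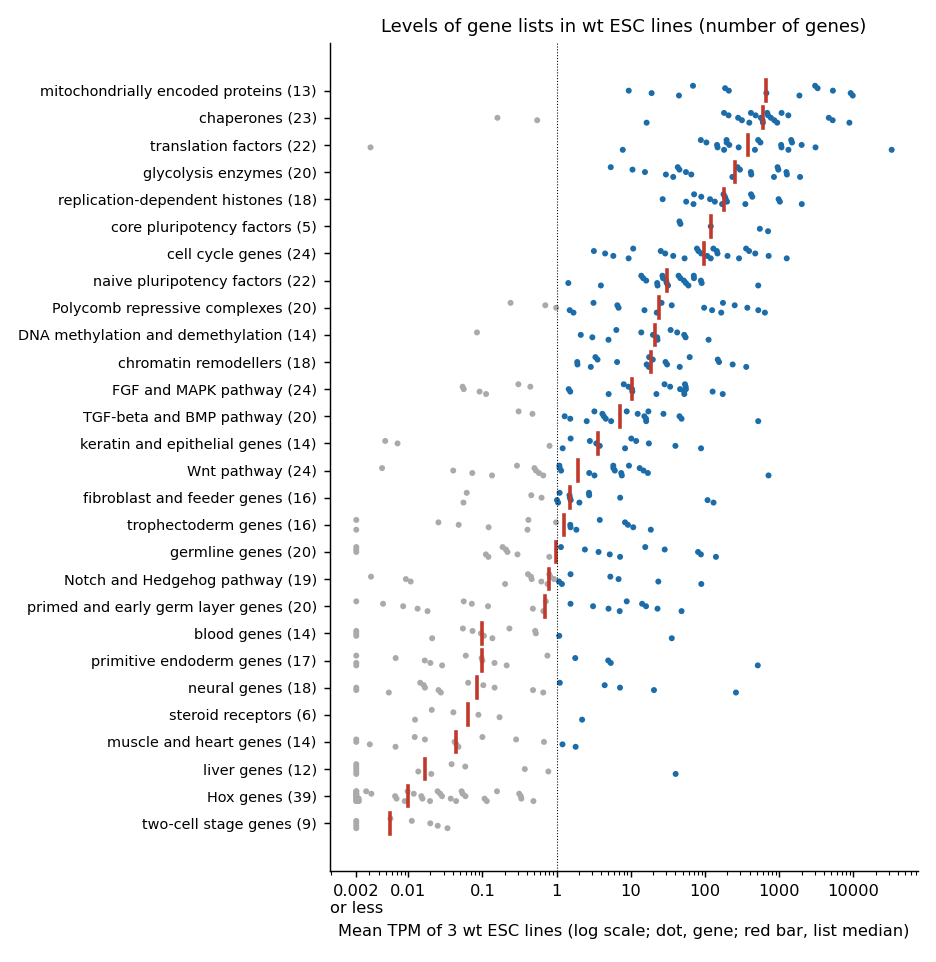
Mean TPM over the 3 wt lines (log scale) of each gene in 28 lists, with genes at 1 TPM or more in blue, lower genes in gray, values of 0.002 or less drawn at 0.002, and the list median as a red bar. Medians run from 671 TPM for mitochondrially encoded proteins to 0.00982 TPM for Hox genes and 0.00577 TPM for 2-cell stage genes, and the core and naive pluripotency lists have medians of 120 and 31.1 TPM.

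The signaling pathways that the medium acts on were expressed at the level of receptors and kinases. For LIF, 9 of 11 genes were at 1 TPM or more (81.8%, beside 48.0% of all protein-coding genes). Among them were the receptor subunits Il6st (39.8, 44.9 and 45.6 TPM) and Lifr (18.8, 28.4 and 26.0 TPM). Socs3, the feedback inhibitor that STAT3 induces, varied most of the list, at 19.8, 39.8 and 56.2 TPM. Lif itself, the ligand, stood below 1 TPM in each line (0.785, 0.919 and 0.572 TPM).

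For FGF and MAPK signaling 18 of 24 genes were at 1 TPM or more (75%, beside 48.0% of all protein-coding genes). Map2k1 (MEK1), a kinase that 2i inhibits, was at 53.4, 56.0 and 47.8 TPM. Immediate targets of the cascade were lower: Egr1 was at 0.231, 0.372 and 0.314 TPM, Spry4 at 0.0212, 0.165 and 0.151 TPM and Etv4 at 0.152, 0.957 and 0.219 TPM. Etv5, a further ETS factor, was not low (63.0, 51.6 and 46.4 TPM), and Spry2, a feedback inhibitor, was at 21.6, 40.6 and 39.5 TPM.

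In the Wnt list 15 of 24 genes were at 1 TPM or more (62.5%, beside 48.0% of all protein-coding genes). Ctnnb1, beta-catenin, was the highest by far at 653, 744 and 755 TPM. Axin2, the usual readout of the pathway, was at 8.76, 13.1 and 6.49 TPM, and Notum, a Wnt deacylase, was at 14.6, 17.2 and 12.7 TPM. Lgr5, a receptor of adult stem cells, did not exceed 0.007 TPM. In the TGF-beta and BMP list 18 of 20 genes were at 1 TPM or more (90%, beside the same 48.0%), with Bmpr1a, a BMP receptor, at 37.5, 48.7 and 49.8 TPM. Id3, a BMP target, varied most at 1.76, 5.82 and 5.40 TPM, and Bmp4 was at 0.185, 0.415 and 0.324 TPM.

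Of the Notch and Hedgehog genes 7 of 19 were at 1 TPM or more (36.8%, against 48.0% of all protein-coding genes), with a median of 0.80 TPM, close to 0.724 TPM overall. The nuclear effector Rbpj (72.0, 101 and 94.1 TPM) and its target Hes1 (28.0, 20.5 and 21.9 TPM) were the highest, while the ligand Shh stood at most at 0.00531 TPM. Of the 6 steroid receptors only Nr3c1, the glucocorticoid receptor, was at 1 TPM or more, at 2.07, 2.11 and 2.44 TPM. Nr3c2, the mineralocorticoid receptor (0.126, 0.223 and 0.163 TPM), and Pgr, the progesterone receptor (0.118, 0.0590 and 0.0878 TPM), were read in each line. The estrogen receptors Esr1 (0.0181, 0.0386 and 0.00571 TPM) and Esr2 (0.0117, 0 and 0.0254 TPM) were lower still. Orphan and retinoid receptors were higher, with 11 of 18 at 1 TPM or more (61.1%, beside 48.0% of all protein-coding genes). They were led by Nr1h2 (13.6, 25.9 and 13.8 TPM) and Nr2c2 (13.2, 17.7 and 18.5 TPM), while Rara, a retinoic acid receptor, varied most (7.04, 9.55 and 1.84 TPM).

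Across the genome, 10430 of 21723 protein-coding genes (48.0%) were at a mean of 1 TPM or more, 6072 at 10 TPM or more, 1305 at 100 TPM or more and 147 at 1000 TPM or more. No read was found in any line for 4960 (22.8%). Pseudogenes were mostly unread (8566 of 13173, 65.0%). Of 678 segments of immunoglobulin and T cell receptor genes, which only lymphocytes rearrange, 662 had no read (97.6%).

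**Figure D3:**
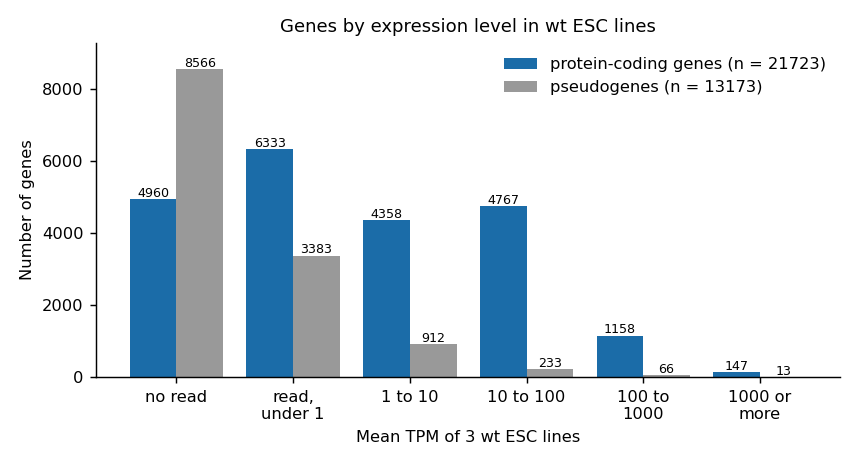
Number of protein-coding genes (blue) and pseudogenes (gray) in each class of mean TPM over the 3 wt lines. The 147 protein-coding genes in the top class stand beside 4960 without a read.

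Transcripts were concentrated in few genes. The single most abundant gene held 3.28 ± 0.224% of all TPM (SD, n = 3), the first 10 held 11.8%, the first 100 held 41.4 ± 0.353% and the first 1000 held 75.5%. Of those 100 genes 60 encoded cytosolic ribosomal proteins, 6 were mitochondrially encoded, 9 were pseudogenes and 3 were histone genes. The leader was Eef1a1, the elongation factor that brings tRNA to the ribosome, at 30217, 33631 and 34428 TPM.

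The gene in second place needs care. Ccnb1ip1, a ligase with a role in meiotic crossing over, was listed at 17671, 14496 and 14719 TPM, nearly all on the transcript Ccnb1ip1-202 of 444 bases (316521 estimated reads in line 1, against 33 on Ccnb1ip1-201). In the GENCODE annotation the whole first exon of Ccnb1ip1-202, 233 bases, lies on the same strand inside Rpph1, the RNA subunit of ribonuclease P. Rpph1 was not analysed here, and reads from the shared stretch cannot be told apart.

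The other nuclear genes among the first 20 were ribosomal proteins, chaperones and growth genes. Npm1, a nucleolar chaperone of ribosome assembly, was at 6256, 6599 and 7162 TPM. Ppia, the prolyl isomerase cyclophilin A, was at 7451, 7448 and 8372 TPM, and Ptma, a chromatin-associated acidic protein, was at 5312, 4653 and 5193 TPM. Rack1, a ribosomal scaffold protein, was at 5652, 5102 and 4450 TPM. One pluripotency gene was in this group: Dppa5a (Esg1), an RNA-binding protein restricted to pluripotent and germ cells, at 6883, 6476 and 5841 TPM, rank 12 among nuclear protein-coding genes.

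Cytosolic ribosomal protein genes together held 25.3, 24.6 and 23.6% of TPM in lines 1, 2 and 3. Of 84 genes 73 were at 1000 TPM or more, with a median of 2778 TPM. Rps12 was the highest (8901, 11525 and 10740 TPM), followed by Rps24 (7600, 8475 and 8948 TPM). Rps2 barely moved between lines (7489, 7469 and 7546 TPM), and Rpl13a moved more (9787, 6722 and 6735 TPM). Low members were copies with restricted use: Rpl3l, known from muscle, at 0.468, 0.425 and 0.443 TPM, Rpl39l, known from testis, at 8.39, 6.54 and 10.6 TPM, and Rpl10l, also known from testis, at 21.5, 4.52 and 5.80 TPM. The 78 mitochondrial ribosomal protein genes were all at 10 TPM or more but had a far lower median of 56.8 TPM.

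Messenger RNAs of ribosomal proteins are known to begin with a C followed by a run of pyrimidines, through which their translation follows growth signals. Start sites of the 3 most abundant ribosomal protein genes that match a C followed by 4 bases each C or T are shown from 20 bases before to 20 bases after the RefSeq start (GRCm38.p6), with those 5 bases in capitals. Rps27 lies on the minus strand at chr3:90213629-90213668, Rps21 on the plus strand at chr2:180257359-180257398 and Rps18 on the minus strand at chr17:33955646-33955685:

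Rps27: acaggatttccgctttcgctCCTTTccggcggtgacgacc

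Rps21: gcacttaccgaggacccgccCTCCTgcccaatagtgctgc

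Rps18: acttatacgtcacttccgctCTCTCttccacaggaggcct

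Of 76 ribosomal protein promoters (64 genes) 13 began this way (17.1%), beside 2.34% of 1198 promoters of other genes at 100 TPM or more and 2.51% of all 32851 windows. These genes stood at 6134, 5199 and 4295 TPM for Rps27, Rps21 and Rps18. The share rests on where RefSeq places a start, and a start shifted by a base would be missed.

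Translation factors followed the ribosome, with 20 of 22 at 10 TPM or more (90.9%, beside 28.0% of all protein-coding genes) and a median of 377 TPM. Eef1b2, the exchange factor of Eef1a1, was at 3160, 2971 and 3117 TPM and Eif5a, needed for proline-rich sequences, was at 1532, 1374 and 1442 TPM. Eef1a2, the muscle and neuron form, was read in line 1 alone (0.00933 TPM). Among chaperones 21 of 23 were at 10 TPM or more (91.3%, beside the same 28.0%). Hspa8, the constitutive HSP70, was at 7865, 9168 and 9431 TPM, and Hsp90aa1 and Hsp90ab1, the cytosolic HSP90 forms, were at 5110, 5382 and 5250 TPM and at 4130, 4643 and 5197 TPM. The stress-induced HSP70 genes Hspa1a (0.249, 0.105 and 0.125 TPM) and Hspa1b (0.693, 0.489 and 0.461 TPM) were under 1 TPM.

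Mitochondrially encoded proteins held 2.62% of TPM in line 1 and 3.74 and 3.75% in lines 2 and 3. Cytochrome oxidase subunits were lowest in line 1, with mt-Co1 at 2559, 6783 and 6533 TPM, mt-Co2 at 1513, 4498 and 3864 TPM and mt-Co3 at 7775, 12170 and 9421 TPM. The largest ratio between lines was that of mt-Nd4l, a complex I subunit, at 6.00, 5.23 and 16.9 TPM. These levels rested on 11.6, 11.3 and 32.9 estimated reads. The pseudogene Gm10222 stood at 59.5, 76.0 and 65.95 TPM. All its stretches of 31 bases are also in protein-coding transcripts, with mt-Nd4l sharing the most, so how reads were divided is uncertain. The same holds for the pseudogenes Gm28437 (685, 2324 and 2856 TPM), with mt-Co3 sharing the most, and Gm28661 (90.8, 138 and 640 TPM), with mt-Co2 sharing the most. The level of mt-Atp8 (9291, 7901 and 10345 TPM) rested on 3374 reads in line 1 over a very short effective length. Nuclear subunits did not share the gap: Cox4i1 was at 1588, 1459 and 1351 TPM, Atp5b, of the ATP synthase head, at 2002, 1885 and 2060 TPM, and Ndufa4 at 877, 815 and 845 TPM. The 46 genes named for complex I and its assembly factors had a median of 117 TPM, the 18 ATP synthase genes 595 TPM.

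Cell division genes were high. Of 24 listed, 20 were at 10 TPM or more (83.3%, beside 28.0% of all protein-coding genes). Among them were Pcna, the replication clamp, at 1032, 1358 and 1396 TPM, Cdk4 at 650, 759 and 751 TPM, Top2a, a topoisomerase, at 426, 507 and 493 TPM, and Cdk1, the mitotic kinase, at 308, 284 and 270 TPM. Cyclin D2 (Ccnd2) varied most, at 6.79, 6.27 and 0.465 TPM. Inhibitors were lower than these genes, but 10 of 11 were at 1 TPM or more (90.9%, beside 48.0% of all protein-coding genes). At 10 TPM or more were 4 of 11 (36.4%, beside 28.0%). These 4 were Trp53 (37.7, 27.1 and 28.4 TPM), the retinoblastoma relative Rbl1 (13.8, 18.1 and 19.5 TPM), Cdkn1a (19.7, 17.0 and 13.9 TPM) and Cdkn1b (11.6, 11.04 and 9.37 TPM).

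All 18 replication-dependent histone genes were at 10 TPM or more and 13 at 100 TPM or more, led by H2bc3 (2229, 1908 and 1903 TPM) and H1f1 (1287, 857 and 918 TPM). Their messages end without a poly(A) tail, and the libraries were made from total RNA. Of the variants, H2az1 (1641, 1494 and 1666 TPM) and H3f3a (1164, 1435 and 1570 TPM) were highest, while H1f10 was at most 0.512 TPM. Glycolysis was represented by 19 of 20 genes at 10 TPM or more (95%, beside 28.0% of all protein-coding genes). Pkm (1812, 2093 and 1821 TPM), Eno1 (1254, 1607 and 947 TPM) and Ldha (1150, 1414 and 1188 TPM) were in front. Proteasome genes were at 10 TPM or more in 45 of 48 cases (93.75%, beside the same 28.0%). The 3 below were the immune and thymic forms Psmb9, Psmb8 and Psmb11, none above 0.765 TPM.

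Genes of the DNA methylation cycle spanned a wide range, with 13 of 14 at 1 TPM or more (92.9%, beside 48.0% of all protein-coding genes). Uhrf1, which guides maintenance methylation, led with 108.4, 123 and 104 TPM, and Dnmt1, the maintenance enzyme, was at 35.1, 36.1 and 31.9 TPM. Of the de novo enzymes Dnmt3b exceeded Dnmt3a (6.03, 4.94 and 4.05 TPM) in each line, and their cofactor Dnmt3l was at 27.8, 49.5 and 49.3 TPM. Tet3, the oocyte form of the TET enzymes, was the low member at 0.113, 0.0749 and 0.0662 TPM.

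Tdg, the thymine DNA glycosylase that excises oxidized methylcytosine, was intact in these lines and stood at 50.6, 57.3 and 56.2 TPM. Mbd4, another thymine glycosylase, was at 19.96, 18.8 and 20.9 TPM. Readers of methylation were Mbd3 (58.1, 54.6 and 44.7 TPM), which lost binding to methylated DNA in evolution, Mbd2 (6.51, 6.87 and 5.76 TPM) and Mbd1 (2.29, 4.54 and 2.27 TPM). These 3 kept that order in every line.

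Of 20 Polycomb genes, which hold developmental genes silent, 17 were at 1 TPM or more (85%, beside 48.0% of all protein-coding genes). The methyltransferase complex was high: Eed at 478, 522 and 567 TPM, Ezh2, the enzyme, at 180, 176 and 168 TPM and Suz12 at 107.5, 182 and 207 TPM. Its alternative enzyme Ezh1 was at 8.06, 6.48 and 6.00 TPM. Cbx7, a Polycomb chromodomain subunit, was at 19.5, 27.5 and 30.9 TPM, above Cbx2 (2.09, 1.59 and 1.39 TPM) in every line. All 18 chromatin remodellers were at 1 TPM or more, led by Hells, a helicase needed for DNA methylation, at 303, 339 and 435 TPM.

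Hox genes, the best known Polycomb targets, were low, and the part of Polycomb in their levels was not tested. None of 39 reached 1 TPM, beside 48.0% of all protein-coding genes. Without a read were 10 (25.6%, near the 22.8% of all protein-coding genes), among them Hoxa2, Hoxa6, Hoxb1, Hoxb2 and Hoxb3. The highest, Hoxc13, was at 0.452, 0.550 and 0.461 TPM. Genes of specialised tissues were silent as families. Of 1103 odorant receptors 985 had no read (89.3%, beside the same 22.8%). Nor did 278 of 333 vomeronasal receptors, 35 of 38 taste receptors, all 57 keratin-associated proteins of hair and all 19 interferons. One odorant receptor stood apart, Olfr1388, at 49.5, 50.8 and 44.9 TPM.

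Large mixed families fell between. Of 365 Zfp zinc finger genes 301 were at 1 TPM or more (82.5%, beside 48.0% of all protein-coding genes). At 10 TPM or more were 168 (46.0%, beside 28.0%). The highest, Zfp991 (397, 596 and 538 TPM), Zfp979 (328, 556 and 557 TPM) and Zfp980 (287, 477 and 483 TPM), belong to a group of close copies, so reads may be divided between them uncertainly. Of 363 solute carriers 166 were at 1 TPM or more (45.7%, near the 48.0% of all protein-coding genes). The mitochondrial ADP/ATP carrier Slc25a5 led them (931, 808 and 873 TPM), and they included the glucose transporter Slc2a3 (548, 392.1 and 304 TPM). Of 92 cytochrome P450 genes 10 were at 1 TPM or more (10.9%, beside the same 48.0%). No read was found for 46 (50%, beside 22.8% of all protein-coding genes).

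Promoters of silent and expressed genes differed in their letters. Promoter windows could be paired for 16725 protein-coding genes (20380 windows). CpG, the dinucleotide that carries DNA methylation, was compared with the number that the C and G content would give. The median ratio was 0.156 for genes without a read, 0.435 for genes read below 1 TPM, 0.726 from 1 to 10 TPM, 0.790 from 10 to 100 TPM, 0.836 from 100 to 1000 TPM and 0.850 above. A ratio of 0.6 or more was found in 5.15% of windows of unread genes and in 83.8% of those at 1000 TPM or more, beside 49.2% of all paired windows.

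The difference is shown by 4 windows, with each CpG in capitals, from 130 bases before to 20 bases after the RefSeq start (GRCm38.p6). Eef1a1 (32759 TPM) lies on the minus strand at chr9:78481705-78481854 and Rps2 (7501 TPM) on the plus strand at chr17:24719933-24720082. Alb (0.0137 TPM) lies on the plus strand at chr5:90460740-90460889 and Hbb-bs (no read) on the minus strand at chr7:103827909-103828058:

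Eef1a1: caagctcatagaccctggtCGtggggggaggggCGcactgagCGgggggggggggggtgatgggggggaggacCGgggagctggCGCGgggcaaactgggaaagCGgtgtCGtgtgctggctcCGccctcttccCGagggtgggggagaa

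Rps2: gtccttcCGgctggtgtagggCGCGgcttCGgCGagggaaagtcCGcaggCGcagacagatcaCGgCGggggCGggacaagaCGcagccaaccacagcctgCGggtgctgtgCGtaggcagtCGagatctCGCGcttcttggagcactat

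Alb: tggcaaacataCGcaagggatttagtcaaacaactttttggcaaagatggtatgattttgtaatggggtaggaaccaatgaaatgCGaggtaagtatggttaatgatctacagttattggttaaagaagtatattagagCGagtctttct

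Hbb-bs: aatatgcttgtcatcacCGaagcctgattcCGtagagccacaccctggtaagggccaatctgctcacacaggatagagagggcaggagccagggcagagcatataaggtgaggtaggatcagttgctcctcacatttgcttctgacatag

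These windows hold 10 CpG for Eef1a1 and 16 for Rps2, against 3 for Alb and 2 for Hbb-bs.

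The pluripotency factors stood apart from that order. The 8 promoter windows of the 5 core factors had a median ratio of 0.346, near that of genes read below 1 TPM, and 1 of the 8 reached 0.6. The 17 windows of 15 naive genes had a median of 0.607. Ratios within a list describe few windows and were not tested.

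The TATA run was searched as TATAAA. On both strands over the whole window it was found in 28.3% of windows of unread genes, against 6.63% from 1 to 10 TPM and 14.7% at 1000 TPM or more, beside 13.6% of all windows in the table. On the sense strand within 20 to 40 bases before the start, where the run is known to act, the shares were 6.83, 1.09 and 2.94% for the same classes. By that measure the share was 1.91% of all windows in the table and 2.48% of those of paired protein-coding genes. Families differed: 31 of 51 windows of keratin-associated proteins had the run there (60.8%), and so did 6 of 16 windows of replication-dependent histones (37.5%).

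A pair of windows from each family is shown, from 45 bases before to 5 bases after the start, with the run in capitals. H1f1 and H3c2 are the most abundant histone genes with a match, on the plus strand at chr13:23763623-23763672 and chr13:23752300-23752349. Krtap1-4 and Krtap1-5, both without a read, lie on the minus strand at chr11:99583673-99583722 and chr11:99581012-99581061:

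H1f1: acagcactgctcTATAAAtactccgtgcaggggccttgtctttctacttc

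H3c2: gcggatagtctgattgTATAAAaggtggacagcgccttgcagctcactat

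Krtap1-4: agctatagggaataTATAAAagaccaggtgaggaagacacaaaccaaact

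Krtap1-5: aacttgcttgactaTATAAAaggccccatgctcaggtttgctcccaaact

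The same run thus stood before genes at about 1021 TPM (H1f1) and 434 TPM (H3c2) and before genes at 0.

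**Figure D4:**
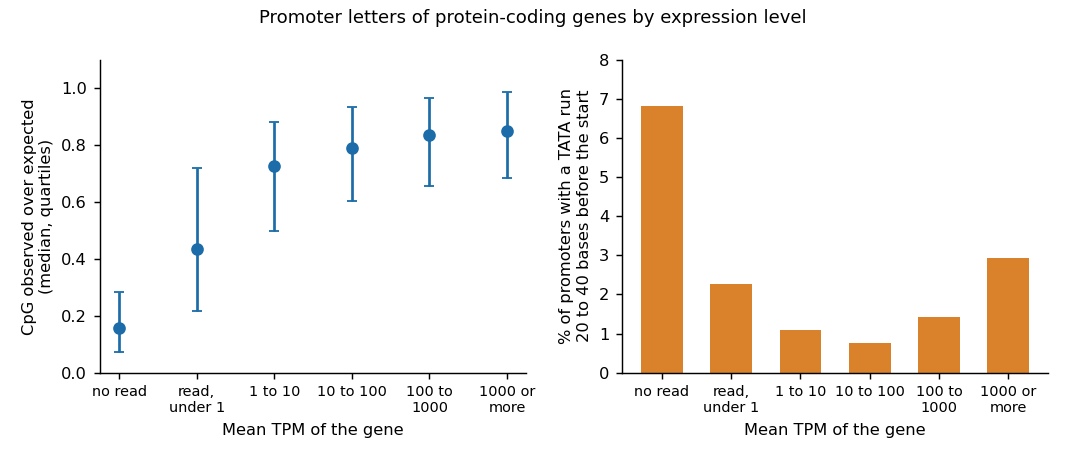
Left, median ratio of observed to expected CpG with quartiles in promoter windows of protein-coding genes, by class of mean TPM; right, percentage of windows with the TATA run 20 to 40 bases before the start. The CpG ratio climbs from 0.156 to 0.850 over the classes, and the TATA share is 6.83% in unread genes and 2.94% in the top class.

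Which isoform dominates was asked for the 5723 genes at 10 TPM or more with at least 2 annotated transcripts. The transcript with the highest TPM was the same in the 3 lines for 4821 genes (84.2%) and held a median of 64.1% of the gene's TPM. It held over 90% in 1207 genes and under 50% in 1515. The answer depends on the scale: ranked by estimated reads, the dominant transcript held a median of 75.9% and was the same in 3 lines for 5210 genes (91.0%). Both rankings named the same transcript in 3962 genes (69.2%). Where they differed, the TPM choice had a median length of 711 bases and the read choice 2871 bases.

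For 4 of the 5 ESC markers 1 transcript led on both scales. Nanog-201 carried 593, 529 and 514 TPM, 99.6% of the gene's TPM, and Sox2-201 is the single transcript of its gene. Zfp42-201 carried 91.8 ± 2.31% and Esrrb-204 77.8 ± 9.01% of TPM (SD, n = 3), and each also led by reads. The rest of Esrrb lay mostly on Esrrb-206 (5.58, 7.48 and 8.78 TPM).

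Pou5f1 had no stable answer by TPM. Pou5f1-204, of 496 bases, carried 418, 343 and 146 TPM, Pou5f1-201, the full message of 1362 bases, carried 351, 305 and 215 TPM, and Pou5f1-202, of 435 bases, carried 0, 0 and 341 TPM. By reads Pou5f1-201 led in every line, with 34635, 38566 and 26965 reads, or 85.4% on average. Of the stretches of 31 bases in Pou5f1-202, 93.1% are also in Pou5f1-201 and 93.3% in Pou5f1-204, so little sequence tells them apart.

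**Figure D5:**
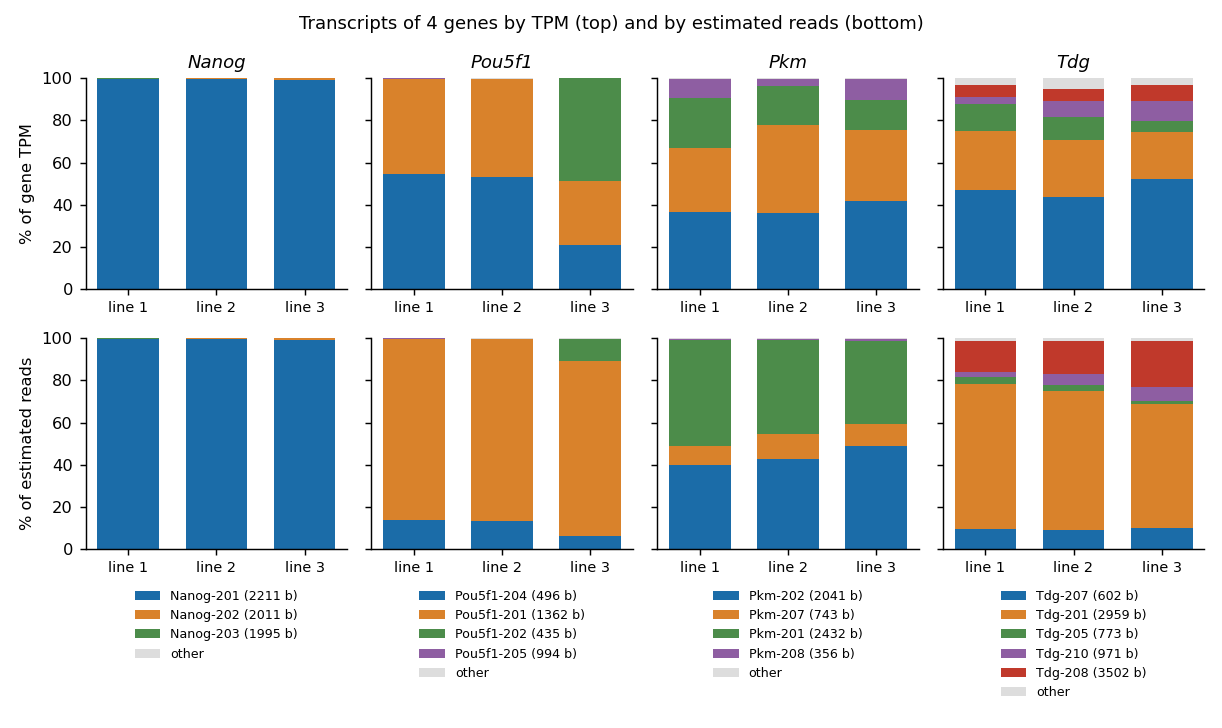
Share of each transcript in the gene's TPM (top) and estimated reads (bottom) for Nanog, Pou5f1, Pkm and Tdg in wt lines 1, 2 and 3; transcript lengths in bases (b) are in the legend. Nanog is nearly all Nanog-201 on both scales, while the leading transcript of Pou5f1 and Tdg differs between the scales.

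Pkm, pyruvate kinase, is known for 2 exons of equal length of which each message uses 1. The upstream exon gives the M1 enzyme of muscle and brain, and the downstream exon the M2 enzyme of embryonic and growing cells. Both are exon 9 of their transcripts in GENCODE (GRCm38, plus strand): the upstream exon in Pkm-202 at chr9:59675029-59675195, the downstream exon in Pkm-201 at chr9:59675568-59675734. Both are coding, 167 bases long, and 61.7% identical, with the 64 differing bases in capitals:

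Pkm-202: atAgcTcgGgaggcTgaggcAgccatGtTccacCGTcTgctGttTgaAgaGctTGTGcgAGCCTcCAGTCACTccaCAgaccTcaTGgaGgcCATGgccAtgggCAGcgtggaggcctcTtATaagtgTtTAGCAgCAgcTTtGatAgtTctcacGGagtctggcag

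Pkm-201: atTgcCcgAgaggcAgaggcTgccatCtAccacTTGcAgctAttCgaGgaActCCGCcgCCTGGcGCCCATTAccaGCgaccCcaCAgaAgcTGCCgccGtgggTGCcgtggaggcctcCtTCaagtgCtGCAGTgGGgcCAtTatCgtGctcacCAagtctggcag

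By TPM the transcripts with the upstream exon held 36.7, 36.2 and 42.0% of Pkm and the one with the downstream exon 23.9, 18.5 and 14.4%, so the upstream form was ahead of the downstream form in each line. Transcripts that hold neither exon whole had the largest TPM share, 39.4, 45.4 and 43.7%. By reads the order was not the same in each line: the downstream form held 50.1, 44.97 and 39.2% and the upstream form 40.02, 42.6 and 48.9%. Those with neither exon whole held 9.89, 12.4 and 11.9% of reads. Effective lengths differed between the 2 forms far more than annotated lengths did (1316 against 2531 bases in line 1, for annotated 2041 and 2432), and 90.8% of stretches of 31 bases in Pkm-202 are also in Pkm-201. Which form dominates was therefore not settled by these tables.

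Other panel genes showed the same pull of short transcripts. Sall4-207, of 393 bases, held 47.9% of the gene's TPM but 3.53% of its reads, while the full Sall4-201 (5073 bases) held 13.4% of TPM and 56.1% of reads. Tdg-207, a retained intron of 602 bases, held 47.6% of TPM and 9.37% of reads, against 25.7% and 64.7% for the coding Tdg-201. Tet1-206 led on both scales (60.1% of TPM, 97.9% of reads), as did Klf4-201 (97.8% of TPM) and Lin28a-201 (88.3% of TPM). For Dnmt3b, Dnmt3b-207 led with 10.5, 7.30 and 9.03 TPM and Dnmt3b-202 followed with 9.22, 5.33 and 4.91 TPM, but by reads Dnmt3b-202 was ahead in line 1 (1584 against 1443 reads) and Dnmt3b-207 in lines 2 and 3. Dnmt1-202 and Dnmt1-201 were within the spread between lines, at 47.0 ± 3.27% and 45.7 ± 5.89% of TPM.

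Among cytoskeletal and growth genes in the panel, some were decided by 1 transcript and others were not. Tpm1-220 held 41.6% of its gene's TPM, and Ctnnd1-226, a noncoding transcript, held 29.5% of TPM and 4.11% of reads. Cdc42-202, of a small GTPase of cell polarity, held 98.1% of TPM, and Srsf3-202, the coding message of a splicing factor, held 96.2%, against 0.464% for Srsf3-201, annotated as a target of nonsense-mediated decay. Tpm3-204 held 85.5% of this tropomyosin gene. Ldha-202 held 54.8% of TPM and 86.3% of reads, Trp53-203 44.1% and 42.9%, and Ezh2-202 33.9% and 57.6%. Gnas, an imprinted signaling gene, was led by Gnas-218, a noncoding transcript of 607 bases, with 45.5 ± 12.5% of TPM.

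The 5 most abundant genes whose dominant transcript differed between lines were Rps14, Rps27a, Rpl35a, Rpl15 and Cox7b. Rps14-201 fell from first place only in line 3, where it had 1200 TPM against 5762 and 4208 TPM in lines 1 and 2, and Rps14-202 had 2147 TPM against 102 and 32.6 TPM. Of the 31-base stretches of Rps14-202, 82.3% are in Rps14-201. Rpl35a-203 gave way to Rpl35a-202 in line 3 in the same way (879 and 1003 TPM), with 76.0% shared.

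Retained introns, annotated transcripts that keep an intron, were the dominant transcript by TPM in 581 genes (10.2%) and by reads in 207 (3.62%). Over protein-coding genes they held 13.1 ± 0.457% of TPM and 6.64 ± 0.283% of reads (SD, n = 3). Some contain the gene of a small nucleolar RNA (snoRNA), which guides modification of ribosomal RNA and is cut from introns. An exon of the dominant transcript overlapped a snoRNA or related scaRNA gene on the same strand in 8 of the 581 genes (1.38%). Among 4242 genes with a dominant coding transcript it did so in 1 (0.0236%). Only exons that covered a large part of the small RNA gene, or lay wholly inside it, were counted. Coding transcripts lack the introns that hold these small RNAs, so the contrast follows largely from the annotation.

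Rpl5-204 was the most abundant of the retained introns with such an overlap, with 1093, 1327 and 2915 TPM, and contains Snord21. Its coding partner Rpl5-201 had 560, 601 and 625 TPM, and the difference of line 3 was on the retained intron. Gm15500, a pseudogene, went the other way, with 2200, 2394 and 1145 TPM. Of its 31-base stretches 99.9% are also in protein-coding transcripts, with Rpl5 sharing the most. How reads were divided between these copies is therefore uncertain. Ncapd2, a condensin subunit, had 967, 762 and 869 TPM on Ncapd2-203, which overlaps Scarna10, and 22.2, 24.1 and 19.3 TPM on the coding Ncapd2-201. For Ncapd2 the coding transcript held 2.34% of TPM and 20.2% of reads. The part of the small RNAs in these levels was not tested.

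Spread between lines was modest for most genes. The median coefficient of variation was 18.9% for protein-coding genes from 1 to 10 TPM, 12.4% from 10 to 100 TPM, 10.5% from 100 to 1000 TPM and 9.21% above. Of 6390 genes at 10 TPM or more, 365 (5.71%) differed by over 2-fold between their highest and lowest line, 244 of them protein-coding and 120 pseudogenes. Line 1 was an extreme most often, highest for 153 and lowest for 168, beside 130 and 116 for line 3 and 82 and 81 for line 2. Without line 1 the count fell to 92.

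The 10 genes with the largest ratio were all pseudogenes. Rps6-ps4 was at 0, 0 and 1104 TPM (18777 reads in line 3). Every stretch of 31 bases in it is also in a protein-coding transcript, with Rps6 as the gene sharing the most. Rps6 stood at 2889, 3403 and 2723 TPM. Rps23-ps1 was at 486, 495 and 0 TPM and was fully shared in the same sense, with Rps23 (4243, 4060 and 4139 TPM) sharing the most. Rpl15-ps3 (0, 268 and 616 TPM) and Rpl36a-ps2 (0, 572 and 800 TPM) were also fully shared, with their parent genes sharing the most. Gm28911, with 94.3% shared and Rpl8 sharing the most, was read in line 1 alone (2353 TPM from 285 reads).

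Over the 312 pseudogenes at 10 TPM or more, a median of 68.8% of 31-base stretches were shared with protein-coding transcripts. The median was 69.6% for those over 2-fold and 66.6% for the others, so the groups were alike in sharing. Reads of shared stretches cannot be told apart, and these pseudogene levels are uncertain. The highest, Gm12338 (3410, 3693 and 3548 TPM), is fully shared in this sense, with Cox7c sharing the most. It is 192 bases long, so that 1101 reads gave its level in line 1.

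Chromosome 16 stood apart in line 1. Of its 216 protein-coding genes at 10 TPM or more, 185 were highest in line 1 (85.6%, against 40.04% on the other chromosomes), and the median ratio of line 1 to the geometric mean of the other lines was 1.37. Examples were Atp5j (622, 347 and 372 TPM), a subunit of the ATP synthase stalk, and Eif4a2 (2702, 1633 and 1683 TPM), an RNA helicase of translation. Mean levels of chromosome 16 genes are thus raised by line 1. The part of chromosome number was not tested.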

How the data were processed

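RNA of 3 wild-type (wt) mouse ESC lines was sequenced by the authors from stranded total RNA libraries depleted of ribosomal RNA (single-end, NextSeq 500). The deposited files hold, per transcript, annotated and effective length, TPM and estimated counts of reads that the authors obtained with Salmon 0.8.1 on the GRCm39 transcriptome. Each line had 31247014 to 35976540 estimated reads.

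Transcripts were paired to genes through GENCODE M21 (115153 of 116357, 98.97%), symbols were updated for 490 genes, and TPM were summed per gene and averaged over lines. The 1204 unpaired transcripts held 0.485 to 0.499% of reads. A level is a mean with SD over 3 lines, each 1 library. Spread is the ratio of highest to lowest line on log2(TPM + 0.1), with over 2-fold counted. The labels give no mating per line, so the spread may be partly technical. No test between groups was made. Promoter windows came from RefSeq (GRCm38.p6), exons from GENCODE (GRCm38), and coordinates are of that build. Python 3.11.15, pandas 2.3.3, numpy 2.4.6 and matplotlib 3.10.9 were used. Gene sums, dominant transcripts, the spread between lines and the promoter letters were tested on simulated data, and the other calculations were not.

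The lines were chosen by genotype label, and the gene lists and families with earlier results of these data known. Genes were named by a rule: the 5 markers, the 20 most abundant nuclear protein-coding genes, up to 5 highest and 5 unread members of each list and its most variable member, and all members of the core, naive, 2-cell, steroid receptor, DNA methylation and Y chromosome lists. Isoforms were given for a panel and for the 5 most abundant genes whose dominant transcript differed between lines. Other genes named were chosen after their values were seen. Some genes that the rule covers are not reported here. Alternatives left out a line, used annotated lengths, nuclear protein-coding genes alone, other pseudocounts and filters, or ranked transcripts by reads.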

Additional observations from a re-analysis of the deposited data

How the results depend on the processing

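Of 55 alternative values 45 moved by less than the limit set for each, and 10 moved. The number of genes at 10 TPM or more that differed over 2-fold between lines, 365, ranged from 92 (without line 1) to 290 (without line 2) when a line was left out, and was 216 without line 3. It was 229 from annotated lengths and 347 without chromosome 16, an alternative chosen after seeing the data. The share of TPM in the 100 most abundant genes, 41.4%, was 42.6% among nuclear protein-coding genes, 39.4% from annotated lengths and 40.5% without mitochondrially encoded genes. The median share of the dominant transcript, 64.1%, was 65.3% from annotated lengths and 75.9% by estimated reads. By construction, 4960 genes had no read among nuclear protein-coding genes alone, against 14011 of all genes, and 7674 genes kept 1 dominant transcript when genes at 1 TPM or more were admitted, against 4821. The cause of the other changes was not tested.

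Depth limits the low classes: under 3 reads over the lines a gene cannot be told from silent. TPM of transcripts shorter than 300 bases rest on few reads. No paired analysis was possible because only 1 group was described and no groups were compared.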

Other observations

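On the X chromosome, present once in male cells, 38.8% of 914 protein-coding genes were at 1 TPM or more, against 48.8% of 20606 autosomal genes. Among genes at that level the median was 14.4 TPM on the X and 13.97 TPM on autosomes. By line the X medians were 15.4, 14.3 and 14.2 TPM and the autosomal medians 14.1, 14.1 and 13.6 TPM, so that the X was the higher in each line.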
